A study of Mus musculus with 6 samples.

Results

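The common response of mouse embryonic stem cells (mESCs) to extra RBBP4 and to extra RBBP7 was examined by setting the 4 overexpression libraries, 2 of Rbbp4 OE and 2 of Rbbp7 OE, as 1 group against the 2 control libraries. The genes described are those with all 4 overexpression libraries on one side of both controls. Of the 12384 protein-coding genes over 300 nucleotides with a mean of at least 0.5 TPM, 3881 met this rule. TPM is a measure of transcript abundance, scaled to the same total in each library and corrected for transcript length.

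All 6 libraries of the series were poly(A) RNA-seq of 46C mESCs, kept in serum medium with LIF, CHIR99021 and PD0325901 and given no further treatment. By the study's methods, cells that already carried BirA-V5, a biotin ligase, from a lentivirus were infected with a pSin lentivirus for FLAG-Avitag-Rbbp4 (Rbbp4 OE), FLAG-Avitag-Rbbp7 (Rbbp7 OE) or the tag alone, and selected with puromycin. The labels name the control libraries as 46C control cells, and these were taken to be the tag-alone cells. On this reading each group stems from 1 infected population, though the methods do not state the number of infections. The transgene and the history of a population therefore cannot be told apart, and both lines were read against the same 2 controls. The labels do not say whether the 2 libraries of a group came from separate cultures, so the p-values measure the spread between these libraries, which may be technical. In the pooled fit this spread also includes the difference between the 2 lines.

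RBBP4 and RBBP7 are closely related WD40-repeat proteins that bind histone H3 and H4. Both are subunits of the PRC2 methyltransferase and of the NuRD and SIN3 deacetylase complexes, and RBBP4 also belongs to the chromatin assembly factor CAF-1 and to the cell cycle repressor DREAM. In mESCs, PRC2 and NuRD hold many lineage genes at a low level.

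Each introduced gene was higher in its own line. Rbbp4 had 146 and 147 TPM in the controls, 270 and 271 TPM with Rbbp4 OE, and 144 and 143 TPM with Rbbp7 OE. Rbbp7 had 239 and 237 TPM in the controls, 208 and 217 TPM with Rbbp4 OE, and 725 and 748 TPM with Rbbp7 OE. Neither gene therefore lay on one side of the controls in all 4 libraries, and each differed between the lines (limma adjusted p = 0.00187 for Rbbp4 and 2.88e-05 for Rbbp7). The embryonic stem cell markers Pou5f1, Sox2, Nanog, Zfp42 and Esrrb ranged from 253 to 1816 TPM over the 6 libraries. Of the 5 defining markers of primitive endoderm, Gata6, Gata4, Sox17 and Pdgfra did not exceed 0.39 TPM, and Dab2 reached 2.01 TPM in Rbbp7 OE replicate 1 and at most 0.55 TPM elsewhere. Of the 5 defining trophoblast markers, Elf5 and Krt7 did not exceed 0.1 TPM and Hand1 reached 2.11 TPM in Rbbp4 OE replicate 2. Cdx2 ranged from 2.93 to 5.49 TPM and Eomes from 5.32 to 11.2 TPM, with Eomes above both controls in all 4 overexpression libraries (limma adjusted p = 0.132). Rbbp7 OE replicate 1 stood apart in a few genes of fibroblasts, with 6.39 TPM of Col3a1 and 6.76 TPM of Twist2 against at most 0.06 TPM in the other libraries, while Lum was listed at 0 in all 6. Summed over the 11 fibroblast genes listed, the level was 7.83 and 8.63 TPM in the controls, 11.8 and 14.3 TPM with Rbbp4 OE, and 27.6 and 11.6 TPM with Rbbp7 OE. Thy1 had 4.13 and 5.02 TPM in the controls, 8.87 and 10.8 TPM with Rbbp4 OE, and 7.01 and 7.04 TPM with Rbbp7 OE. It made up most of the Rbbp4 OE sums and lay above both controls in all 4 overexpression libraries. Col1a1 (0.81 and 0.86 TPM) and Col1a2 (1.3 and 0.79 TPM) were highest in the Rbbp7 OE libraries. The part of fibroblasts in the results was not tested beyond leaving out Rbbp7 OE replicate 1.

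The plot of levels by library shows, among the genes that passed an adjusted p under 0.05, those of the largest common size, which is the smaller of the differences of the 2 lines from control. Mest, Tesc, Sdc4 and Grb7 rose more than 2-fold, and Adipor2, Plekhg4 and Hoxa10 fell more than 2-fold, at a limma adjusted p under 0.01. These 7 are 0.0323% (higher) and 0.0242% (lower) of the genes tested. The 2 libraries of a line were taken to share a population. With line as a random block Mest, Adipor2 and Plekhg4 remained called and 28 genes passed, while Tesc, Sdc4, Grb7 and Hoxa10 had adjusted p from 0.0222 to 0.0297 (limma). At an adjusted p under 0.05 without a fold limit, 63 genes (0.509%) rose and 55 (0.444%) fell, and all 118 lay on one side of both controls. The size of the change had a median of 0.71 on the log2 scale in the rises (0.27 to 2.28) and 0.75 in the falls (0.43 to 2.59).

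**Figure D1:**
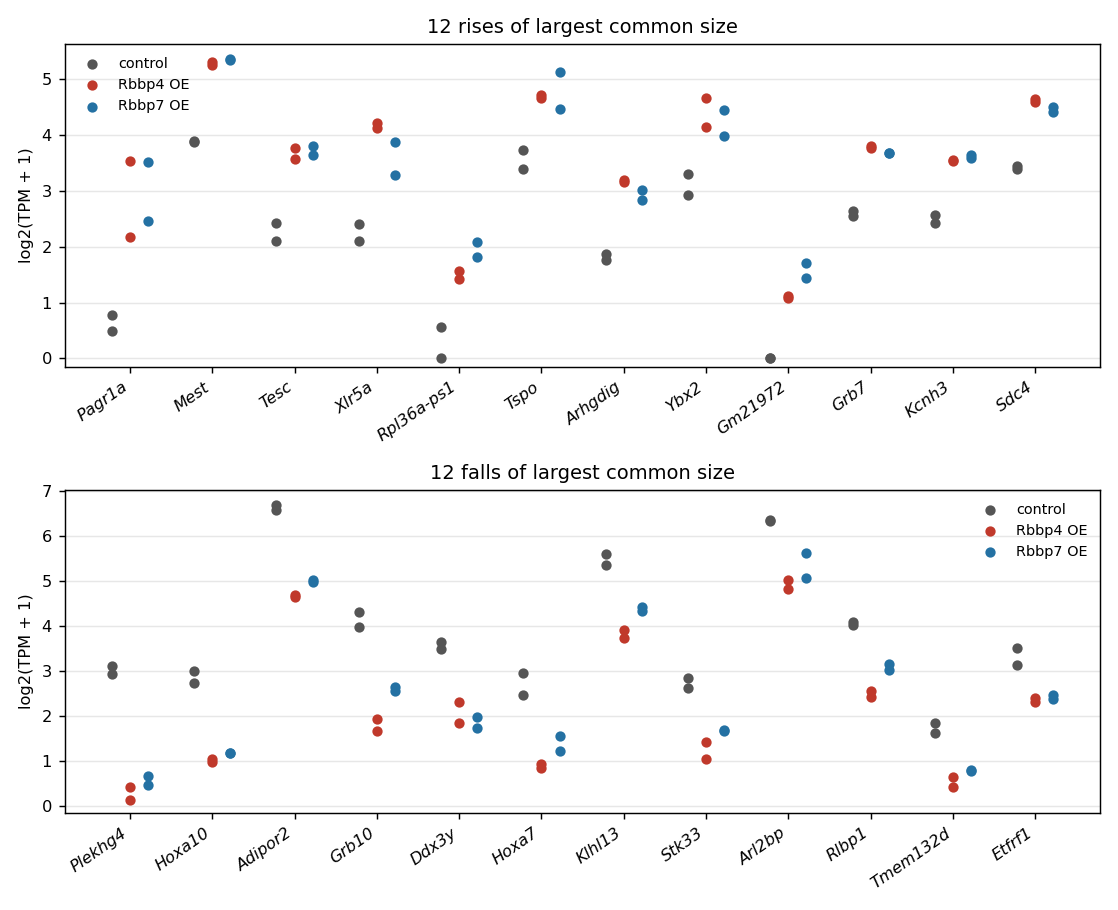
Level of the 12 rises (upper panel) and the 12 falls (lower panel) of largest common size among the genes that passed, in each of the 6 libraries, on the y axis as log2(TPM + 1), with 1 point per library and the genes along the x axis. In each gene the 4 overexpression points lie on one side of the 2 control points.

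The wider rule, position alone, took in many genes with small differences. All 4 overexpression libraries lay above both controls in 1517 genes (12.2% of those tested) and below both in 2364 (19.1%). Of these, 726 and 1177 were separated from the nearest control by less than 0.1 on the log2 scale, and 63 and 60 by more than 0.5. At the narrow end Safb had 247.1 TPM in a control and 247.15 TPM in an overexpression library, and at the wide end Plekhg4 was separated by 2.25 on the log2 scale. Just outside the rule, Kdm2b had 56.72 TPM in a control and 56.73 TPM in an overexpression library, with the other 3 lower. The position of the libraries uses the same values as the test and adds no support to it. Of the genes above both controls, 104 had a control mean under 0.5 TPM. Of those below, 35 had an overexpression mean under 0.5 TPM. Such genes entered only through the group where they were high, so the filter fixed their side. The position counts of lists and families below were made without leaving them out. With median-of-ratios scaling the counts became 1956 above and 2054 below, so the excess of falls in position was small under that scaling.

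The number of genes that passed changed with the libraries in the fit. It was 0 without control replicate 1 (limma, 1838 genes at an unadjusted p under 0.05), 3 without control replicate 2 and 4 without Rbbp4 OE replicate 2. With 1 control the spread came from the overexpression libraries alone, so the lone control was assumed to vary as they did. Without control replicate 1 the differences of Mest and Adipor2 were 1.43 and -1.86 on the log2 scale, close to those with all libraries. Without Rbbp7 OE replicate 1, the library with high Col3a1 and Twist2, 31 genes passed and 29 of them were among the 118. A single gene compared 4 against 2 by an exact permutation test cannot reach a p below 0.0667, so no such p is given.

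Mest and Adipor2 lie far apart on chromosome 6, and they are shown with their promoters because they moved in opposite directions in all 4 libraries. The sequences are RefSeq promoters of GRCm38.p6, from 250 bases before to 50 bases after a transcription start, with every CG dinucleotide, the site of DNA methylation in mammals, in capitals. The Hoxa10 promoter, from another locus of the same chromosome, is added as that of a called developmental gene.
Mest, chr6:30737800-30738099, plus strand: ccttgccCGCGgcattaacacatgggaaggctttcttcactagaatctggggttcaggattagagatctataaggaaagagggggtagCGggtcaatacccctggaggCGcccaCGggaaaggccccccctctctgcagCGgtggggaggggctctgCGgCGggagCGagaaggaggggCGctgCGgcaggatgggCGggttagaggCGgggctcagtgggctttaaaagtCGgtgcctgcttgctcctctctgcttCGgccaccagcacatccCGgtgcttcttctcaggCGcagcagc
Adipor2, chr6:119388685-119388984, minus strand: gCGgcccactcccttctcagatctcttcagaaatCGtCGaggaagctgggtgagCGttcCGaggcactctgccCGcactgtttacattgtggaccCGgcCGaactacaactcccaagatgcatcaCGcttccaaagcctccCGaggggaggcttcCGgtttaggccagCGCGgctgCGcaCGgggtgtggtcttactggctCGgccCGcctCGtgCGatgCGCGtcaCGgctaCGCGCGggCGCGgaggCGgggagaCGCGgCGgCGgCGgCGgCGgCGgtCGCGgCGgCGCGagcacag
Hoxa10, chr6:52240805-52241104, minus strand: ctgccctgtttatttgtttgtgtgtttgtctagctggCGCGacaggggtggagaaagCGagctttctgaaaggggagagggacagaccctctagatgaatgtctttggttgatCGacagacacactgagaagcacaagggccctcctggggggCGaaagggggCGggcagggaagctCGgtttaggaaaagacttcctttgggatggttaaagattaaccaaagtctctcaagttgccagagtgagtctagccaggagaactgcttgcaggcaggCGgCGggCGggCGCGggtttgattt
These windows hold 17 CG in Mest, 41 in Adipor2 and 12 in Hoxa10. Of 27025 RefSeq promoters of this length, 1 per gene, 68.1%, 96.7% and 59.9% respectively held fewer. The median was 7 CG over all these promoters and 21 over the 9734 that belong to tested genes. Against the tested genes, Mest and Hoxa10 thus lay below the median and Adipor2 above it. The Mest and Adipor2 windows lie inside the annotated span of their genes, with 3 and 1 annotated transcripts starting within 100 bases. Other starts of these 2 genes are annotated farther upstream, and their promoters are not shown. No methylation was measured here.

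Mest encodes a protein of the alpha/beta hydrolase fold and is imprinted, with expression from the paternal allele. Mest (GRCm38 chromosome 6, 30723547 to 30748465) had 13.6 and 13.8 TPM in the controls, 37.2 and 38.7 TPM with Rbbp4 OE, and 40.1 and 39.6 TPM with Rbbp7 OE. The 4 overexpression libraries were tightly grouped, and the lowest of them was far above both controls. The pooled difference was 1.44 on the log2(TPM + 1) scale (SE 0.085, limma adjusted p = 0.00126), or 2.84 times the control mean. Exons of Mest share 912 bases with Copg2 on the opposite strand, and the counting is not stated to use strand. Copg2 itself had 21.3 and 23.2 TPM in the controls and 18.6 to 20.4 TPM in the overexpression libraries, so it lay on the other side of the controls (limma adjusted p = 0.356).

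Adipor2 encodes a receptor of the adiponectin and progestin receptor family that also maintains membrane fluidity. Adipor2 (chromosome 6, 119353150 to 119417704) had 95.1 and 103 TPM in the controls, 24.2 and 24.9 TPM with Rbbp4 OE, and 30.6 and 31.6 TPM with Rbbp7 OE. All 4 libraries were far below both controls, and Rbbp4 OE was the lower of the lines in both libraries. The pooled difference was -1.80 (SE 0.13, limma adjusted p = 0.0021), and that between the lines did not pass (limma adjusted p = 0.096). Its homolog Adipor1 had 45.2 and 44.0 TPM in the controls and 35.5 to 43.5 TPM in the overexpression libraries (limma adjusted p = 0.376).

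Of the other called rises, Tesc encodes a calcium-binding regulator of sodium-proton exchange, Sdc4 a heparan sulfate proteoglycan of the cell surface and Grb7 an adaptor of receptor tyrosine kinases. Tesc had 4.39 and 3.31 TPM in the controls and 10.8 to 12.9 TPM in the 4 overexpression libraries, a difference of 1.42 (SE 0.15, limma adjusted p = 0.00974). Sdc4 had 9.84 and 9.44 TPM in the controls and 20.4 to 23.9 TPM after overexpression, a difference of 1.12 (SE 0.11, limma adjusted p = 0.0087). Grb7 had 4.88 and 5.23 TPM in the controls and 11.8 to 12.9 TPM after overexpression, a difference of 1.13 (SE 0.12, limma adjusted p = 0.00997). In all 3 genes the groups were well separated, and the adjusted p of Tesc and Grb7 was close to the limit of 0.01.

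Of the other called falls, Plekhg4 encodes a guanine nucleotide exchange factor. It had 6.57 and 7.60 TPM in the controls, 0.10 and 0.33 TPM with Rbbp4 OE, and 0.59 and 0.38 TPM with Rbbp7 OE. The pooled difference of -2.59 (SE 0.20, limma adjusted p = 0.00288) was the largest fall in common size among the genes that passed, and the mean after overexpression was 0.0494 times that of control. Hoxa10 encodes a homeodomain transcription factor of posterior patterning. It had 5.65 and 7.04 TPM in the controls, 0.98 and 1.07 TPM with Rbbp4 OE, and 1.26 and 1.27 TPM with Rbbp7 OE, a difference of -1.77 (SE 0.17, limma adjusted p = 0.0085).

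Further Hoxa genes lay below both controls. Because Hoxa10 and Hoxa7 both passed, the Hox genes were counted after these values had been seen. Of 7 Hoxa genes tested, 5 lay below both controls, none above and 2 passed, with a median difference of -0.90. Over all tested genes 19.1% lay below both controls and 0.444% fell. Hoxa7 had 4.54 and 6.76 TPM in the controls and 0.79 to 1.93 TPM after overexpression, a difference of -1.58 (SE 0.25, limma adjusted p = 0.044). Hoxa9 had 7.05 and 9.98 TPM in the controls and 0.34, 0.60, 2.85 and 0 TPM after overexpression but did not pass (limma adjusted p = 0.062), and neither did Hoxa11 (limma adjusted p = 0.058). Hoxa11 had a mean of 1.44 TPM in control and 0.31 TPM after overexpression. It entered the test only through the controls, so the filter fixed its side. Of 10 tested Hox genes of the other clusters, 3 lay below and 1 above both controls, and 0 passed by limma, with 4 at an unadjusted p under 0.05. Hoxc9, one of those below, had means of 1.1 TPM in control and 0.48 TPM after overexpression and likewise entered only through the controls.

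Of 40 tested imprinted genes, 2 rose (Mest and Zrsr1), 2 fell (Grb10 and Peg10), 9 lay above both controls (22.5%) and 11 below (27.5%). Over all tested genes 0.509% rose, 0.444% fell, 12.2% lay above and 19.1% below both controls. Their median difference was -0.04, against -0.05 over all tested genes. Grb10, an adaptor that restrains insulin and IGF1 receptor signalling, had 14.7 and 18.9 TPM in the controls, 2.16 and 2.84 TPM with Rbbp4 OE, and 4.86 and 5.27 TPM with Rbbp7 OE, a difference of -1.94 (SE 0.29, limma adjusted p = 0.0394). Peg10, a retrotransposon-derived gene expressed from the paternal allele, had 17.7 and 22.7 TPM in the controls and 8.69 to 11.2 TPM after overexpression (-0.91, SE 0.15, limma adjusted p = 0.0465). Sgce, which shares the Peg10 imprinted domain, had 3.75 and 3.43 TPM in the controls and 1.24 to 1.89 TPM after overexpression without passing (limma adjusted p = 0.069). Zrsr1, an imprinted splicing factor gene, had 15.6 and 18.9 TPM in the controls and 25.9 to 27.7 TPM after overexpression (0.63, SE 0.10, limma adjusted p = 0.0465). Mest, Zrsr1 and Peg10 are paternally expressed genes and differed in direction.

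At an adjusted p under 0.05, 0.509% of all tested genes rose and 0.444% fell. Of 25 tested germline genes that DNA methylation silences in other tissues, 3 rose and none fell, and all 3 belong to the X-linked Xlr family. These were Xlr5a (4.28 and 3.31 TPM in the controls, 8.76 to 17.6 TPM after overexpression, difference 1.62, SE 0.26, limma adjusted p = 0.044), Xlr3c and Xlr3b. Xlr3c had 15.0 and 15.3 TPM in the controls and 28.4 to 33.8 TPM after overexpression, a difference of 0.99 (SE 0.10, limma adjusted p = 0.00904). Xlr3b had 11.5 and 8.97 TPM in the controls and 17.0 to 22.9 TPM after overexpression (0.87, SE 0.15, limma adjusted p = 0.0479). Of the list's members, 2 lay below both controls (8%, against 19.1% of all tested genes), Tex19.1 and Hormad1. Above both controls lay 7 (28%, against 12.2%), all of the Xlr family. Their transcripts have near-identical copies (99.3% identity for Xlr5a, 99.1% for Xlr3c and 98% for Xlr3b at best), so reads may be split between family members and the separate levels are uncertain. Under median-of-ratios scaling 1 member passed in place of 3.

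The remaining rises of large common size had low levels in control. Tspo, a protein of the outer mitochondrial membrane, had 12.3 and 9.45 TPM in the controls and 21.1 to 33.8 TPM after overexpression (1.18, SE 0.19, limma adjusted p = 0.044). Ybx2, an RNA-binding protein of germ cells, had 6.60 and 8.82 TPM in the controls and 14.9 to 24.2 TPM after overexpression (1.20, SE 0.20, limma adjusted p = 0.0465). Arhgdig, a GDP dissociation inhibitor, had 2.66 and 2.39 TPM in the controls and 6.14 to 8.19 TPM after overexpression (1.23, SE 0.16, limma adjusted p = 0.0207). Kcnh3, a voltage-gated potassium channel, had 4.95 and 4.36 TPM in the controls and 10.6 to 11.5 TPM after overexpression (1.08, SE 0.12, limma adjusted p = 0.0159). In these 4 genes no overexpression library overlapped the controls.

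The levels of 3 rises are uncertain. Pagr1a, a subunit of MLL3/MLL4 methyltransferase complexes, had 0.72 and 0.40 TPM in the controls and 3.49, 10.5, 10.4 and 4.51 TPM after overexpression, a difference of 2.28 (SE 0.40, limma adjusted p = 0.0479). The overexpression libraries spread widely here, and 98.7% of its exon bases are shared with the annotated gene Gm42742 on the same strand. Rpl36a-ps1 had 0.48 TPM and a listed 0 in control and 1.68 to 3.22 TPM after overexpression, with copies of up to 98.4% identity. Gm21972 had a listed 0 in each control and 1.12 to 2.26 TPM after overexpression, and its exons overlap those of Armc9 and Psmd1 on the same strand. Gm21972, Rpl36a-ps1 and Parp10, 3 of the 63 rises, had a control mean under 0.5 TPM and entered the test only through the overexpression libraries, so the filter fixed their direction. Plekhg4 was the 1 fall that entered only through the controls.

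The remaining falls spanned several chromosomes. Klhl13, a substrate adaptor of the CUL3 ubiquitin ligase, had 39.8 and 47.4 TPM in the controls, 12.3 and 14.1 TPM with Rbbp4 OE, and 20.4 and 19.2 TPM with Rbbp7 OE (-1.37, SE 0.20, limma adjusted p = 0.0374). Arl2bp, which binds the GTPase ARL2, had 79.4 and 81.3 TPM in the controls, 27.3 and 31.6 TPM with Rbbp4 OE, and 32.7 and 48.3 TPM with Rbbp7 OE (-1.21, SE 0.19, limma adjusted p = 0.0464). Rlbp1, a retinaldehyde-binding protein, had 15.9 and 15.2 TPM in the controls and 4.32 to 7.87 TPM after overexpression (-1.27, SE 0.22, limma adjusted p = 0.0479). The lines did not overlap in these 3 genes, with Rbbp4 OE the lower, but none of the 3 differences between the lines passed. Stk33 (a serine/threonine kinase), Tmem132d and Etfrf1 (a regulator of the electron transfer flavoprotein) fell by 1.27, 1.08 and 0.93 on the log2 scale.

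Ddx3y, a Y-linked RNA helicase, also fell in both lines. It had 10.2 and 11.6 TPM in the controls, 3.95 and 2.59 TPM with Rbbp4 OE, and 2.91 and 2.31 TPM with Rbbp7 OE (-1.61, SE 0.19, limma adjusted p = 0.0173). The other Y-linked genes were looked at after this was seen. Of 7 tested, Eif2s3y and Uty also lay below both controls and none lay above, where 19.1% and 12.2% of all tested genes did. Eif2s3y had 28.0 and 35.6 TPM in the controls, 14.5 and 14.8 TPM with Rbbp4 OE, and 6.56 and 7.92 TPM with Rbbp7 OE (limma adjusted p = 0.069). Uty had 1.87 and 2.97 TPM in the controls and 0.56 to 1.17 TPM after overexpression (limma adjusted p = 0.112). In bulk RNA, fewer cells that express a gene and less RNA per cell cannot be told apart.

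Each line was set against the controls separately to see how far the pooled change held in both. The 2 lines share the controls, so agreement between them is not independent. Of the 12 falls, 11 were farther from control in Rbbp4 OE, the exception being Ddx3y, and of the 12 rises 5 were. Among all that passed, Rbbp4 OE was the farther line in 42 of 63 rises and 47 of 55 falls (85.5%), while it was the farther in 81.3% of all genes below both controls, 58% of those above and 65.8% of all tested genes. The test between the lines found 29 genes (0.234%) at a limma adjusted p under 0.05, and none of the 118 was among them. The pooled fit counts a difference between the lines as spread, which keeps such genes from passing, so this lack of overlap was largely set by the selection. Among all genes above and below both controls, 5 and 8 differed between the lines. The test between the lines has 2 libraries per line, and its lack of a call does not show that the lines responded alike.

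**Figure D2:**
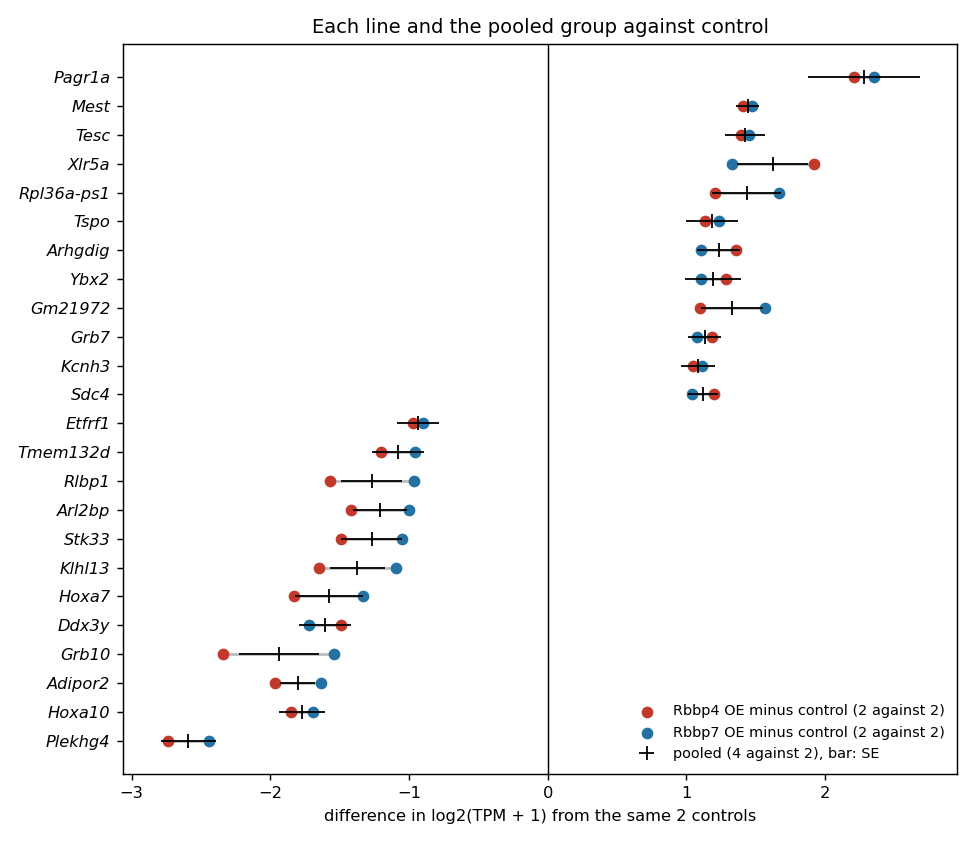
Difference in log2(TPM + 1) from the same 2 controls (x axis) for the 24 genes of largest common size among those that passed (y axis), with red points for Rbbp4 OE, blue points for Rbbp7 OE and a black tick with its SE for the pooled group. Adipor2 reads -1.97 and -1.64 in the 2 lines and Mest 1.41 and 1.48, and the falls lie farther out in Rbbp4 OE in 11 of 12 genes.

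The tested genes were next counted by function in 19 lists, whose members were counted whether or not they passed. Cholesterol synthesis had the largest share of its members below the controls. Of its 24 tested genes, 17 lay below both controls (70.8%, against 19.1% of all tested genes), 1 above, and 1 passed. The median difference was -0.30, with -0.38 in Rbbp4 OE and -0.24 in Rbbp7 OE, and it was -0.24 under both median-of-ratios scaling and quantile normalization. Without Rbbp7 OE replicate 1 the counts were again 17 below and 1 above. Mvd, which makes isopentenyl diphosphate, had 87.7 and 94.8 TPM in the controls and 58.2 to 68.7 TPM after overexpression (-0.52, SE 0.088, limma adjusted p = 0.0465). Idi1, the isomerase of isopentenyl diphosphate, had 60.7 and 63.5 TPM in the controls, 27.3 and 26.0 TPM with Rbbp4 OE, and 43.5 and 43.1 TPM with Rbbp7 OE (limma adjusted p = 0.116). Nsdhl was the gene above both controls, with 22.8 and 23.5 TPM in the controls and 25.9 to 28.8 TPM after overexpression.

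In the adiponectin receptor list, of 26 genes tested 11 lay below both controls (42.3%, against 19.1% of all tested genes), 1 above and Adipor2 alone passed. The median difference was -0.17. Scd1 and Scd2, the desaturases that make monounsaturated fatty acids, had 51.9 and 62.2 TPM and 175 and 227 TPM in the controls. After overexpression they had 30.1 to 39.8 TPM (limma adjusted p = 0.067) and 127 to 149 TPM (limma adjusted p = 0.079). Cdh13, the T-cadherin that binds adiponectin, was the gene above both controls, and it reached 2.57 TPM only in Rbbp7 OE replicate 1, against at most 0.25 TPM in the other 5 libraries.

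Of 25 tested genes of the integrated stress response, 3 fell, 11 lay below both controls (44%) and 3 above (12%), with a median of -0.12. Over all tested genes 0.444% fell, 19.1% lay below and 12.2% above both controls. The 3 that fell were Psat1 and Phgdh, enzymes of serine synthesis, and Slc7a3, a transporter of cationic amino acids. Psat1 had 134 and 144 TPM in the controls, 65.3 and 66.0 TPM with Rbbp4 OE, and 83.3 and 78.1 TPM with Rbbp7 OE (-0.93, SE 0.11, limma adjusted p = 0.0173). Phgdh had 64.4 and 60.3 TPM in the controls and 31.9 to 44.1 TPM after overexpression (-0.79, SE 0.13, limma adjusted p = 0.0465), and its transcript has 7 near-identical copies. Slc7a3 had 56.7 and 58.4 TPM in the controls and 41.1 to 42.8 TPM after overexpression (-0.45, SE 0.073, limma adjusted p = 0.0465). Atf4, the transcription factor of the response, had 224 and 219 TPM in the controls and 188 to 210 TPM after overexpression (limma adjusted p = 0.237). Under median-of-ratios scaling 7 of the list lay below both controls and 2 above, with a median of -0.05, and 1 of the 3 falls passed.

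Of 40 tested cell cycle genes, 15 lay below both controls (37.5%, against 19.1% of all tested genes) and 3 above (7.5%, against 12.2%). Their median was -0.11, and 0 passed by limma (13 at an unadjusted p under 0.05). Under median-of-ratios scaling 11 lay below and 5 above, with a median of -0.05. Ccne2, a cyclin of S phase entry, had 8.18 and 12 TPM in the controls, 1.49 and 1.62 TPM with Rbbp4 OE, and 5.17 and 4.77 TPM with Rbbp7 OE (limma adjusted p = 0.125). Of 24 tested genes of glycolysis and hypoxia, Slc2a3, a glucose transporter, and Tpi1, triosephosphate isomerase, fell, where 0.444% of all tested genes did. Slc2a3 had 533 and 594 TPM in the controls and 299.9 to 390.0 TPM after overexpression (-0.73, SE 0.12, limma adjusted p = 0.0465), and Tpi1 had 402 and 447 TPM in the controls and 267 to 309 TPM after overexpression (-0.56, SE 0.084, limma adjusted p = 0.0404). The list as a whole had 7 genes below (29.2%) and 3 above both controls (12.5%).

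Subunits and partners of the complexes that hold RBBP4 and RBBP7 showed no common direction. Of 56 tested, 10 lay above both controls (17.9%), 11 below (19.6%) and 2 fell, with a median of -0.02. Over all tested genes 12.2% lay above and 19.1% below both controls, and 0.444% fell. Epop, a PRC2 partner, had 599 and 571 TPM in the controls and 379 to 458 TPM after overexpression (-0.49, SE 0.080, limma adjusted p = 0.0465). E2f4, the repressor E2F of DREAM, had 211 TPM in both controls and 140.3 to 162 TPM after overexpression (-0.49, SE 0.077, limma adjusted p = 0.044). Under median-of-ratios scaling 1 of the 2 passed.

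**Figure D3:**
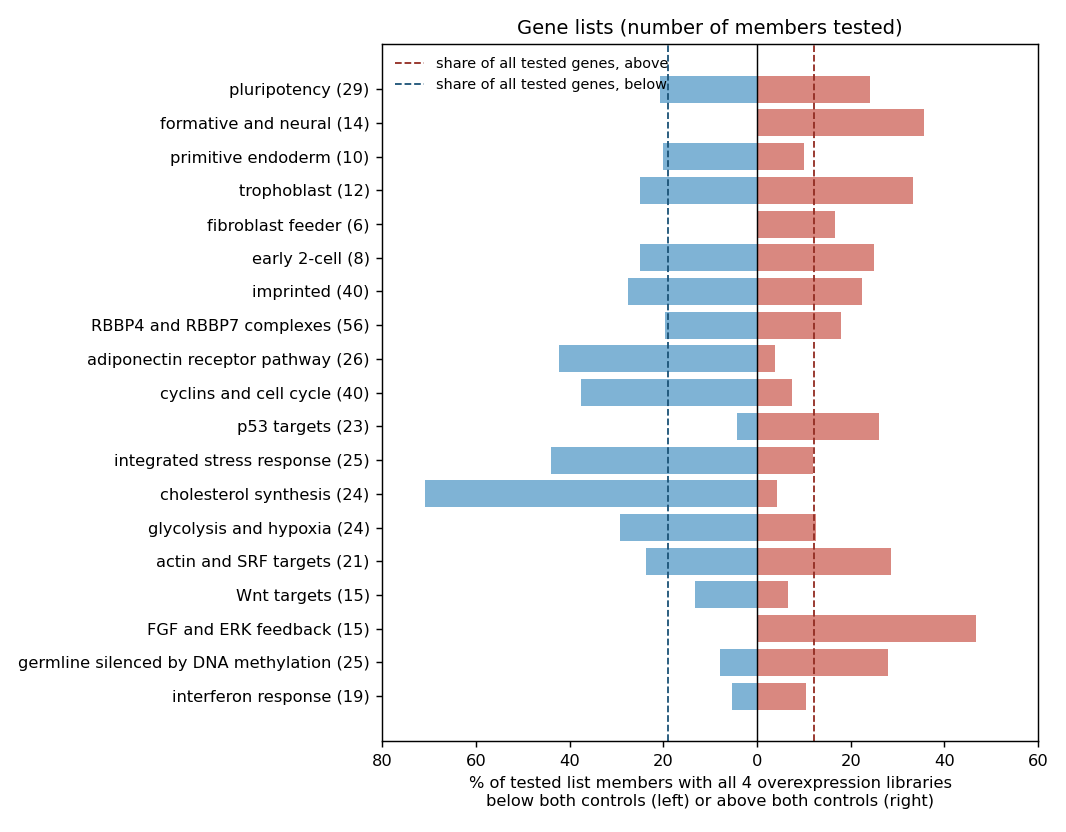
Share of each list's tested members, in % on the x axis, with all 4 overexpression libraries above both controls (red, to the right) or below both (blue, to the left), with the lists on the y axis and their number of tested members in brackets. Dashed lines mark the shares over all tested genes, 12.2% and 19.1%, and cholesterol synthesis reaches 70.8% to the left.

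Of 15 tested genes of FGF and ERK feedback, 7 lay above both controls (46.7%, against 12.2% of all tested genes), none below and 0 passed by limma (5 at an unadjusted p under 0.05), with a median of 0.19. The median was 0.06 in Rbbp4 OE and 0.35 in Rbbp7 OE. Without Rbbp7 OE replicate 1 the counts were again 7 and 0, and the median was 0.12. Spry2, an inhibitor of receptor tyrosine kinase signalling, had 40.0 and 44.3 TPM in the controls and 51.3 to 57.7 TPM after overexpression (limma adjusted p = 0.104). Fos, an immediate early transcription factor, had 3.97 and 3.89 TPM in the controls and 5.48 to 8.08 TPM after overexpression (limma adjusted p = 0.115). In the formative and neural list of 14 tested genes, 5 lay above both controls (35.7%) and none below, against 12.2% and 19.1% of all tested genes. Only Zic2, a zinc finger transcription factor, rose, where 0.509% of all tested genes did. It went from 9.57 and 10.2 TPM to 15.2 to 17.4 TPM (0.68, SE 0.11, limma adjusted p = 0.0465).

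Over all tested genes 12.2% lay above and 19.1% below both controls. Of 29 tested pluripotency genes, 7 lay above both controls (24.1%) and 6 below (20.7%), and 1 passed. Utf1, a chromatin protein of pluripotent cells, rose from 215 and 203 TPM to 287 to 313 TPM (0.50, SE 0.061, limma adjusted p = 0.0186). Nanog lay below both controls by a small margin, with 484 and 521 TPM in the controls and 420 to 484 TPM after overexpression (limma adjusted p = 0.328). Of 8 tested early 2-cell genes, 2 lay above and 2 below both controls (25% each) and 0 passed by limma (3 at an unadjusted p under 0.05), with a median of -0.03. Of 12 tested trophoblast genes, 4 lay above both controls (33.3%), 3 below (25%) and 0 passed by limma (8 at an unadjusted p under 0.05). Among those below was Cdx2, with 5.49 and 4.88 TPM in the controls and 2.93 to 3.70 TPM after overexpression (limma adjusted p = 0.135).

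The other lists had few members that passed. In the list of actin and SRF targets Tagln2, an actin-binding protein, rose from 67.1 and 67.5 TPM to 91.3 to 118 TPM (0.60, SE 0.10, limma adjusted p = 0.0465). Of its 21 tested genes, 6 lay above both controls (28.6%) and 5 below (23.8%), against 12.2% and 19.1% of all tested genes. Of 23 tested p53 targets, 6 lay above both controls (26.1%) and 1 below, and 0 passed by limma (4 at an unadjusted p under 0.05). Bbc3, which encodes the pro-apoptotic protein PUMA, had 35.4 and 33.5 TPM in the controls and 48.0 to 58.2 TPM after overexpression (limma adjusted p = 0.055), and 1 p53 target passed under quantile normalization. The lists of Wnt targets (1 above and 2 below of 15), interferon response (2 and 1 of 19), primitive endoderm (1 and 2 of 10) and fibroblast genes (1 and 0 of 6) had 0 members that passed by limma (3, 3, 2 and 1 at an unadjusted p under 0.05). After the GC and length correction described below, none of Utf1, Zic2 and Tagln2 passed.

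The genes that fell were not spread evenly over the chromosomes. Of the 55, 17 lay on chromosome 8, all between 94.7 and 128.7 Mb. None of the 673 tested genes of that chromosome rose, where 0.509% of all tested genes did. This was noticed in the data, and the limits of 90 Mb on chromosome 8 and of 110 to 140 Mb on chromosome 6 were set afterwards, so no test is given. The part of chromosome 8 beyond 90 Mb held 30.9% of the falls and 2.17% of the tested genes. Of its 269 tested genes, 152 lay below both controls (56.5%) and 17 above (6.32%), with a median difference of -0.30. Over all tested genes 19.1% lay below and 12.2% above both controls. The remainder of chromosome 8 had a median of -0.04 and 21.5% of its 404 genes below both controls. The median of these 269 genes relative to the control mean was -0.38 and -0.35 in the Rbbp4 OE libraries and -0.25 and -0.24 in the Rbbp7 OE libraries, and it was -0.05 and 0.05 in the controls. All 4 overexpression libraries were thus lower in this segment. The 2 control values are equal and opposite by construction, since each was taken from the mean of both. Over the chromosomes other than 6, 8 and the mitochondrial genome they were also -0.05 and 0.05.

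Plekhg4, E2f4, Arl2bp and Mvd, described above, lie in this segment. Gins2, a subunit of the replicative helicase, Got2, the mitochondrial aspartate aminotransferase, and Itgb1, the integrin beta-1 chain, were among the other genes of it that passed, and they are named here after their values were seen. Gins2 fell by 0.78 (SE 0.073, limma adjusted p = 0.0085), Got2 by 0.60 (SE 0.073, limma adjusted p = 0.0173) and Itgb1 by 0.80 (SE 0.14, limma adjusted p = 0.0479). Each of these falls was smaller than 2-fold.

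A second segment was seen on chromosome 6. Between 110 and 140 Mb, 75 of 170 tested genes lay below both controls (44.1%) and 9 above (5.29%), with a median of -0.24. The shares over all tested genes were 19.1% below and 12.2% above. The difference was larger in Rbbp4 OE, at -0.32, than in Rbbp7 OE, at -0.12. This segment holds Adipor2, Slc2a3 and Tpi1, and Mest and the Hoxa cluster lie outside it. Of 210 windows of 10 Mb with at least 20 tested genes, the 4 windows of distal chromosome 8 had 4 of the 5 lowest medians, from -0.34 to -0.29, while the median over all windows was -0.06. Under median-of-ratios scaling 145 genes of the chromosome 8 segment and 64 of the chromosome 6 segment still lay below both controls. When the genes of both segments were left out of the fit, 38 genes passed, all among the 118, and Mest remained the only call. The 2 segments held 17 and 4 of the 118. Most of the genes lost thus lay outside the segments, and their own values were unchanged in this fit.

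**Figure D4:**
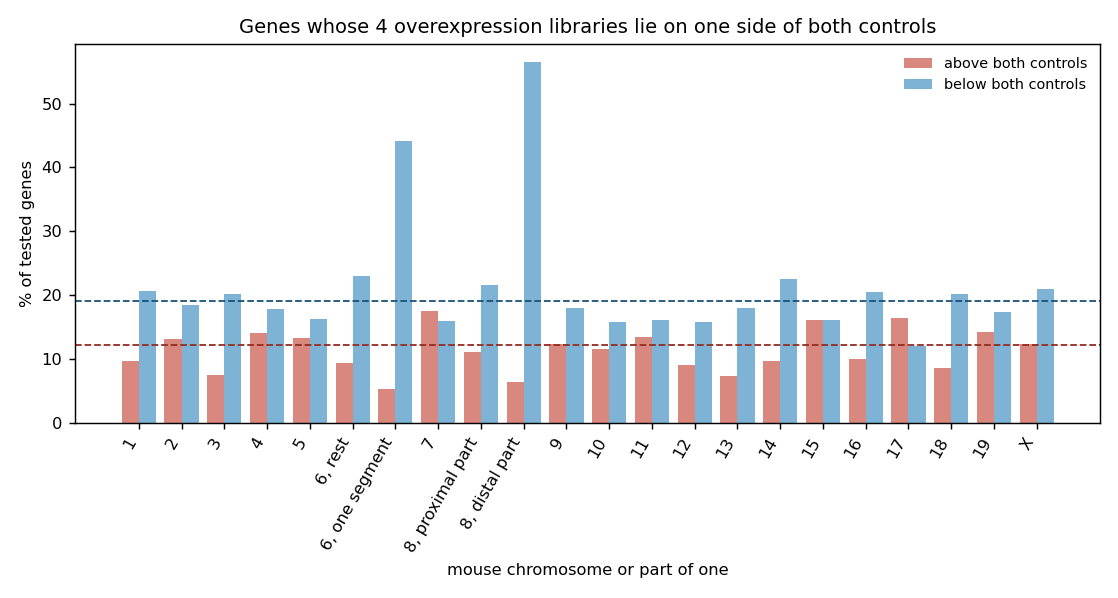
Share of tested genes, in % on the y axis, with all 4 overexpression libraries above both controls (red bars) or below both (blue bars), by mouse chromosome on the x axis, with chromosomes 6 and 8 split at limits set after the data were seen. The distal part of chromosome 8 reaches 56.5% below and the segment of chromosome 6 44.1%, against a dashed line at 19.1% for all tested genes.

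Genes of the mitochondrial genome lay on the opposite side. Of 11 tested, 8 were above both controls and 4 rose, with a median of 0.35, where 12.2% of all tested genes lay above both controls and 0.509% rose. Under median-of-ratios scaling 8 still lay above both controls and 1 passed, and without Rbbp7 OE replicate 1 the counts were also 8 and 1. All mitochondrially encoded genes together took 8.97% and 9.78% of the summed TPM of the controls, 10.5% and 9.89% with Rbbp4 OE, and 11.2% and 11.0% with Rbbp7 OE. TPM has a fixed total, so the share of abundant transcripts enters the level of all others in a library. The median difference over all tested genes was -0.092 in Rbbp4 OE and -0.0087 in Rbbp7 OE. What part the mitochondrial share had in these medians was not tested.

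The rises and falls also differed in base composition and level. The genes that rose had a median GC content of 56.2% in the longest transcript and those that fell 51.5%, with 50.3% over all tested genes. Their median length was 2472 and 2557 nucleotides, against 3260 over all. The median control level was 17.6 TPM in the rises and 80.4 TPM in the falls, against 13.2 TPM over all. After a correction for GC content and length 91 genes passed, and 75 of them were among the 118.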

How the data were processed

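Poly(A) RNA-seq of 46C mESCs was analysed in 6 libraries, 2 per group, grouped by their labels. By the study's methods, the authors trimmed reads with Trim_galore, aligned them to mm10 with STAR and estimated expression with RSEM on GENCODE vM25, and they deposited TPM values. TPM keeps no depth, so depth is unknown and no counting interval is given. GENCODE M21 (GRCm38) supplied names, biotypes and coordinates and matched 55141 of 55401 genes. The study tested counts. Here log2(TPM + 1) was fitted with limma-trend (limma 3.58.1, R 4.3.3) as 4 libraries against 2, which left 4 residual degrees of freedom, with Benjamini-Hochberg adjustment over 12384 protein-coding genes longer than 300 nucleotides with a mean of at least 0.5 TPM. Fold changes on this scale understate low genes. The difference between lines came from a 3-group fit. On simulated data 94.5% of 200 genes changed by 1.5 on the log2 scale were recovered among 12384, and 4.06% of the calls were false. The simulated libraries were independent, with no effect of a shared population, and the changed genes were taken from those above a minimum level. These rates therefore do not carry over to the 4 libraries from 2 lines tested here or to low genes.

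The named genes were Adipor2, Mest, Rbbp4 and Rbbp7, the 12 rises and 12 falls of largest common size, and list members that passed, without mitochondrially encoded genes. Genes named for their list or segment beside these were picked once their values had been seen. The members, lists and alternatives were chosen with earlier results of these data known. Where a symbol had 2 entries, lists used the one with the higher mean. Copies were searched with blastn at 95% identity over 80% of the transcript. Alternatives were pseudocounts of 0.1 and 5, other filters, scalings and biotypes, blocks, a robust prior, a GC and length correction, each line alone and leaving out each library. Leaving out the 2 chromosome segments was added after seeing the data. Replicate numbers did not pair the samples (correlations of same-numbered deviations of -3.68e-04, 0.0078 and -0.02). Some members of the lists are not reported here by name.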

Additional observations from a re-analysis of the deposited data

Results flagged for a closer look

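Among the named genes, Zrsr1 was picked out because 1 of the 4 overexpression libraries lay far from the other 3, with 25.9 TPM with Rbbp4 OE replicate 2 against 27.5 to 27.7 TPM in the others. Chance picks out about 1 in 20 such groups of samples, and all 4 values remained above both controls. The effect of the 2 lines differed by the limma test between them for the introduced genes themselves. The difference of Rbbp4 OE minus Rbbp7 OE was 0.91 on the log2 scale for Rbbp4 and -1.79 for Rbbp7.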

How the results depend on the processing

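Adipor2 passed in 18 of 20 alternatives and Mest in 20 of 21, both with an unchanged direction. With a library left out Adipor2 ranged from -1.87 to -1.74 and Mest from 1.43 to 1.46, and the calls were lost without control replicate 1 (Adipor2 -1.86, limma adjusted p = 0.0751, and Mest 1.43, limma adjusted p = 0.057) and for Adipor2 without control replicate 2 (-1.75, limma adjusted p = 0.094). The 37 other named genes kept their direction in all 764 comparisons and stayed past the threshold in 369. Rbbp4 and Rbbp7, which each rose in 1 line, gave -0.032 and -0.16 in the line of the other gene, against pooled values of 0.42 and 0.73.

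The 7 calls became 3 with a pseudocount of 5, 1 without a filter, 4 under median-of-ratios scaling and under quantile normalization, 31 in the 3-group fit, 3 with line as a random block, 20 and 1 in Rbbp4 OE and Rbbp7 OE alone, 1 without the 2 chromosome segments, 30 at an adjusted p under 0.05 with the fold limit, 13 with an adjusted p below 0.01 whatever the fold and 0 to 3 with a library left out. The 118 genes that passed became 62, 20 (no filter), 195 (mean of at least 5 TPM), 51 (all biotypes), 1171 (3-group fit), 28 (random block), 1041 and 9 (each line alone), 38 (without the segments) and 0 to 69 with a library left out. In the 3-group fit, where the lines share 1 estimate of spread, 91 genes had an adjusted p under 0.05 in each line with the same sign and no overlap with the controls.

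Replicate numbers shared no pairing signal, and with a replicate block 0 genes were called (limma, 2058 at an unadjusted p under 0.05) and 16 passed, of which 15 were among the 118, while 6 differed between the lines. The 3881 genes on one side became 7498 with Rbbp4 OE alone and 4305 to 7311 with a library left out. The 29 genes that differed between the lines became 54 with a pseudocount of 0.1, 2 without a filter, 235 at a mean of at least 5 TPM, 17 under median-of-ratios scaling, 92 with a robust prior, 18 after the GC and length correction and 1 to 267 with a library left out. The cause of these shifts was not tested. Depth is unknown, so what it limits cannot be stated.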
